A study of Mus musculus with 5 samples.

Results

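The 10 genes described here, Trpv4, Trpv2, Trpm4, Trpm7, Piezo1, Piezo2, P2rx4, P2ry2, Panx1 and Slc17a9, encode bladder filling sensors and parts of ATP signalling. They were picked by gene symbol, with earlier results of these data known. All 10 were found among the 24970 gene rows of the count tables. All 10 also passed the low-count filter, which kept 14779 genes for testing. RNA had been sequenced from bladder urothelium dissected away from the muscle of 5 mice aged 10 weeks. The 2 wild types (WT 1 and WT 2) were C57Bl/6 mice, and the 3 knockouts (KO 1, KO 2 and KO 3) carried Krt5CreERT2 with Ncstnflox/flox. Krt5CreERT2 is a drug-inducible recombinase under the promoter of the basal cell keratin Krt5, so that only cells with Krt5 activity and their descendants can lose Ncstn, which encodes the gamma-secretase subunit Nicastrin. The labels used here state neither induction of the recombinase nor a strain name for the knockouts beyond the genotype. Strain, recombinase and loss of Ncstn cannot be told apart in this design.

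The urothelium is not only a seal against urine. When the bladder fills, stretch opens cation channels in its cells, calcium enters, and ATP leaves the cells through channels and vesicles. The released ATP acts on P2X receptors, which are ATP-gated cation channels, and on P2Y receptors, which couple to G proteins, both on the urothelium itself and on the sensory nerve endings beneath it. Surface enzymes then break ATP down to adenosine, which has receptors of its own.

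Gene counts came to 12608836 to 27188499 per library. Ncstn itself had 144 and 130 CPM (counts per 1000000 counts, after scaling between libraries) in the wild types, while the knockouts had 114, 117 and 123 CPM, a log2 fold change of -0.21 ± 0.09 (SE; edgeR adjusted p = 0.133). These counts cover the whole gene and all cells of the tissue, so they do not check the deletion. All 16 urothelium markers were detected in the dissected tissue, 8 of them rose and none fell, and their summed level was 15309 to 17413 CPM in the wild types and 21439 to 23962 CPM in the knockouts. Of 9 fibroblast markers 8 fell, and their sum was 14668 to 16640 CPM in the wild types against 8562 to 10272 CPM in the knockouts. Of 9 endothelial markers 4 fell, with sums of 548 to 578 and 409 to 499 CPM. By the same test, 9.64% of all 14779 tested genes rose in the knockouts and 10% fell. Precursor ribosomal RNA (Rn45s) took 7.84% of gene counts in WT 1, 3.23% in WT 2 and 0.608% to 1.53% in the knockouts. Malat1 took 0.390% in WT 1, 0.281% in WT 2 and 0.0658% to 0.0779% in the knockouts. The sums of 12 leukocyte markers (285 to 312 and 209 to 307 CPM) and 8 smooth muscle markers (322 to 448 and 293 to 439 CPM) overlapped between genotypes. No marker was at 0 in every library. In bulk tissue, fewer cells of a type and less RNA per cell cannot be told apart, and the part of these shifts in the results below was not tested.

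Among the 10 genes, P2ry2, Piezo2 and Trpm4 rose in the knockouts, P2rx4 fell, and the other 6 did not pass the test. P2ry2, a G protein-coupled receptor for ATP and UTP, moved most, 2.31-fold up. Piezo2, a stretch-gated channel of sensory cells, rose 1.51-fold, and Trpm4, a calcium-activated channel for monovalent cations, rose 1.30-fold. P2rx4, an ATP-gated cation channel, fell 1.43-fold. The 4 genes that passed make 40% of the 10, where 19.7% of all 14779 tested genes passed (9.64% higher and 10% lower). The knockout libraries all lay above both wild types in 5 of the 10 and all below in 3, where 51% of all tested genes had no overlap between genotypes in either direction (25.9% above and 25.1% below). Of the 10 genes 6 had an unadjusted p under 0.05, as did 34.8% of all tested genes. The median log2 fold change of the 10 was 0.0049, against 0.0071 over all genes tested. Every p comes from a quasi-likelihood fit in edgeR, was adjusted by the Benjamini-Hochberg method over all tested genes, and passed when under 0.05 after adjustment. Values of single libraries are given throughout in the order WT 1, WT 2 and then KO 1, KO 2, KO 3.

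**Figure D1:**
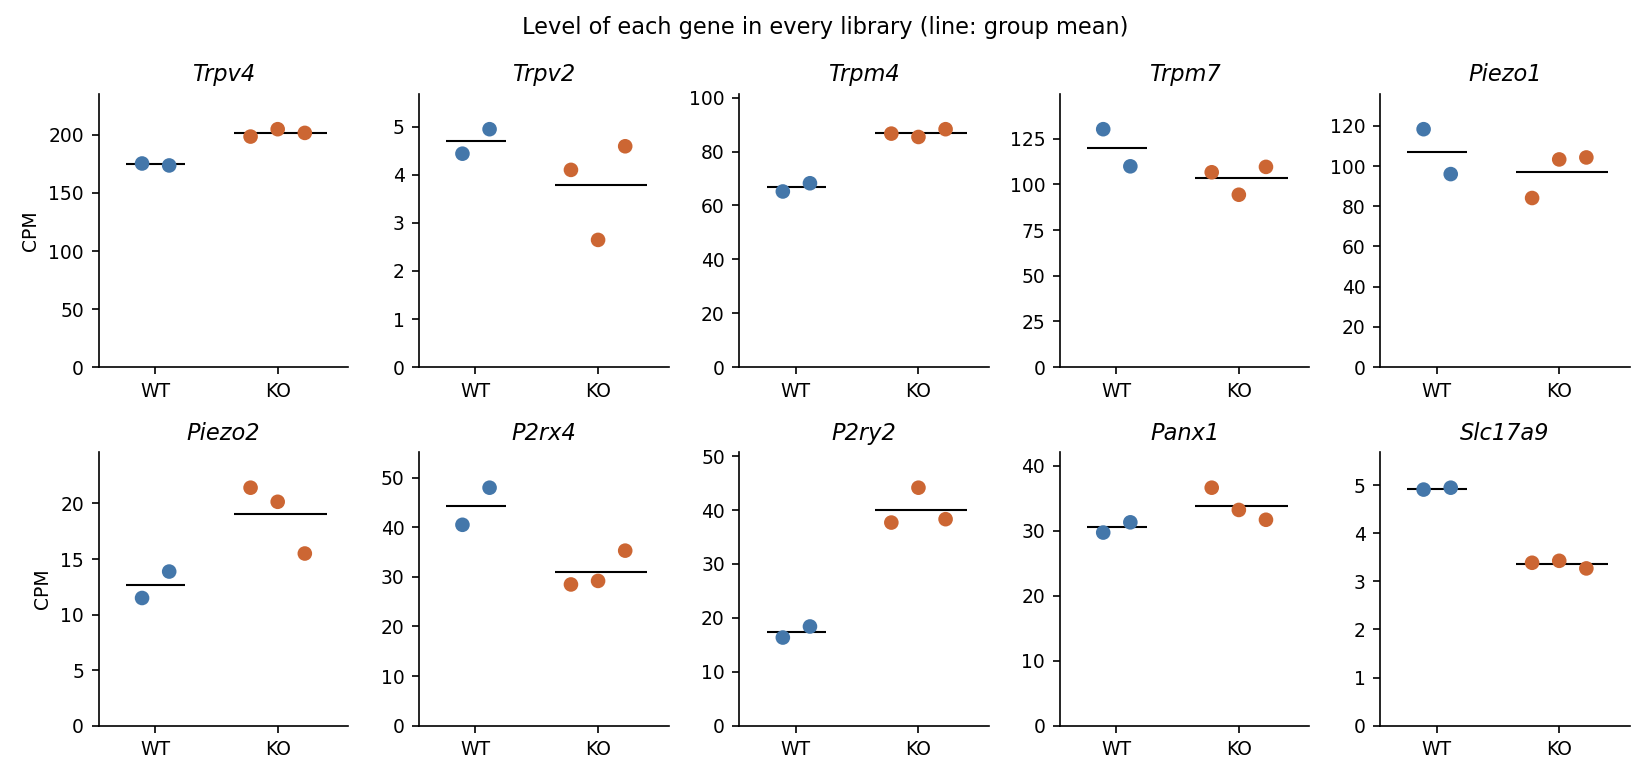
CPM (vertical axes, each from 0) of the 10 genes in the 2 WT libraries (blue) and the 3 KO libraries (orange), with a line at each group mean. P2ry2 stands at 16.3 and 18.4 CPM in the wild types and at 37.7 to 44.1 CPM in the knockouts, and Piezo1 and Trpv2 overlap between genotypes.

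**Figure D2:**
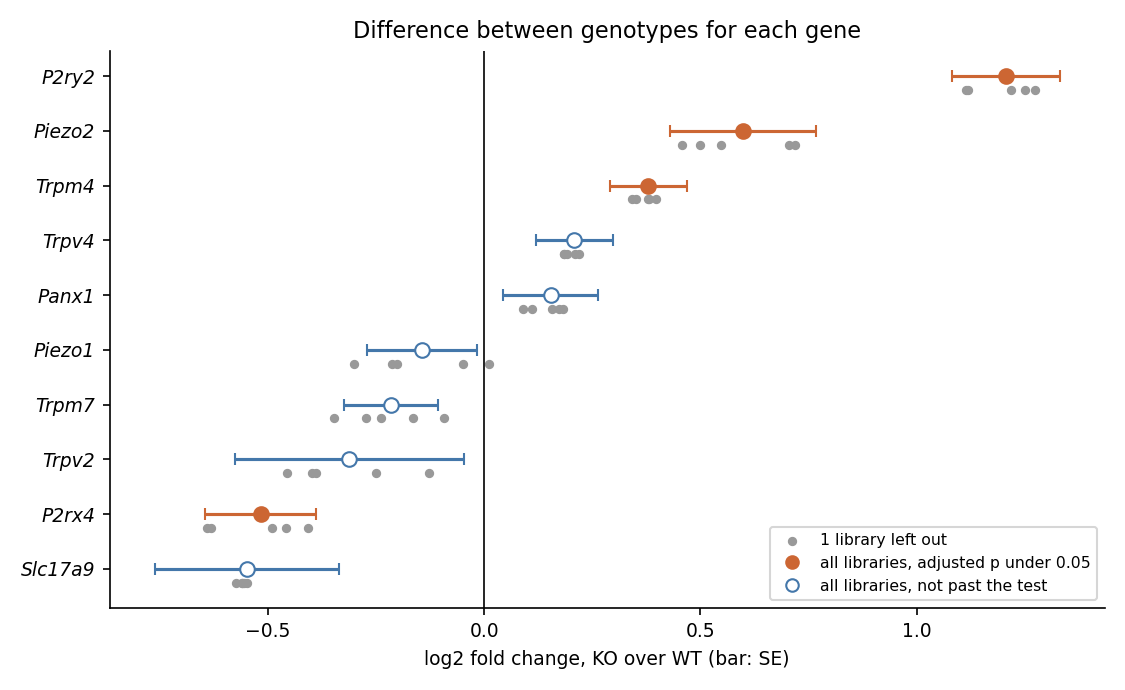
Log2 fold change of each gene, KO over WT, with its standard error (large points and bars, filled where the adjusted p is under 0.05) and the same value with 1 library left out (small grey points). P2ry2 lies at 1.21 and stays between 1.12 and 1.27 without any single library, while the Piezo1 points fall on both sides of 0.

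P2ry2 (chr7:100996568-101012866, GRCm38, minus strand) responds to ATP and UTP through Gq and calcium stores. The wild types had 16.3 and 18.4 CPM of P2ry2, and the knockouts had 37.7, 44.1 and 38.3 CPM. The lowest knockout was above the highest wild type by more than the spread within either genotype. The means were 17.4 ± 1.45 CPM (SD, n = 2) and 40.0 ± 3.57 CPM (SD, n = 3), a log2 fold change of 1.21 ± 0.12 (SE; edgeR adjusted p = 0.000269). Without any 1 library it still passed, with edgeR adjusted p from 1.68e-05 to 0.0113.

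P2rx4 (chr5:122707544-122729738, plus strand) is an ion channel opened by ATP, found in epithelia and in macrophages. Wild-type levels were 40.5 and 48.0 CPM, and knockout levels 28.5, 29.2 and 35.3 CPM. All knockouts were below both wild types, with KO 3 nearest to them. Its wild-type mean was 44.2 ± 5.29 CPM (SD, n = 2) and its knockout mean 31.0 ± 3.74 CPM (SD, n = 3), a log2 fold change of -0.52 ± 0.13 (SE; edgeR adjusted p = 0.0195). The call was lost without WT 1 (edgeR adjusted p = 0.0555), WT 2 (0.132), KO 1 (0.0673) or KO 2 (0.0525), while the log2 fold change stayed between -0.64 and -0.41. Among the leukocyte markers, of which macrophage genes are a part, Cd14 rose, Lyz2 fell and 9 did not pass.

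A RefSeq start of each receptor gene is shown because the 2 genes moved in opposite directions. Whether these stretches of sequence bear on the direction was not tested. The sequences are the 250 bases before a RefSeq start on GRCm38.p6, 5′ to 3′ on the strand of the gene, with GC boxes (GGGCGG on either strand) in capitals.
P2ry2, chr7:101011999-101012248, minus strand: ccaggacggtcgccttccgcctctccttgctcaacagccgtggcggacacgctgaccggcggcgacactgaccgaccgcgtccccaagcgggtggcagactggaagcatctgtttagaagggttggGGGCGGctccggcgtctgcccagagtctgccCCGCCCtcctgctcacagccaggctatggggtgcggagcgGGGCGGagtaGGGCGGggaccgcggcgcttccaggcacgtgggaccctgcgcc
P2rx4, chr5:122707294-122707543, plus strand: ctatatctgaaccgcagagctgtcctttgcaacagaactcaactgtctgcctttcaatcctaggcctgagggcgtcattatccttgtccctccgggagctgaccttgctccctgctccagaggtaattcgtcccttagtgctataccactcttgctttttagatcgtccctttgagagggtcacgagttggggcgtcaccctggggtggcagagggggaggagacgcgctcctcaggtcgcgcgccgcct
The P2ry2 window holds 4 GC boxes, from 124 to 43 bases before the start, and 71.2% G and C. The P2rx4 window holds no GC box and 57.2% G and C. The P2ry2 window lies inside the gene span given above and the P2rx4 window just before its own, so their positions are not alike. Over all 32851 RefSeq windows of this length, 32.7% hold a GC box and the median G and C content is 52.4%. Neither window holds the core letters bound by the Notch partner RBPJ (TGGGAA, either strand, in 21.6% of all windows), the Grainyhead-like letters AACCNGTT (1.79%) or the TEAD letters GGAATG (12.6%), which says only that these letters are not in these windows. A second P2ry2 start, whose window overlaps the printed one, also lacks these 3 motifs and holds 2 GC boxes. Windows were matched for 7 of the 10 genes.

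The ratio of P2ry2 to P2rx4 put the receptor change on a scale that does not depend on how the libraries were scaled. Per kilobase of transcript, P2ry2 stood at 0.362 and 0.344 of the P2rx4 level in the wild types. Knockout libraries had ratios of 1.19, 1.36 and 0.975. With lengths taken over all annotated exons the wild-type ratios were 0.722 and 0.686 and the knockout ratios 2.37, 2.71 and 1.94. P2rx4 was thus the more abundant per length in both wild types by either length. P2ry2 was the more abundant in KO 1 and KO 2 by either length, and in KO 3 only by the all-exon length.

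Of 13 other P2X and P2Y receptor genes, 11 could be tested. None of them rose, 3 fell, and 4 of the 11 had an unadjusted p under 0.05. P2ry4 had no count in any library. The ADP receptor gene P2ry1 fell from 23.3 and 21.7 CPM to 14.6, 15.9 and 15.2 CPM (log2 fold change -0.57 ± 0.12 SE, edgeR adjusted p = 0.0104). P2rx7, the ATP-gated channel of leukocytes best known for driving IL-1 release, fell by 0.86 on the log2 scale, and P2ry13, an ADP receptor of myeloid cells, fell by 1.24. Neither had any overlap between genotypes. P2rx3, the ATP receptor of sensory fibres, was at 0.722 to 1.51 CPM across all libraries with no separation of the genotypes (edgeR adjusted p = 0.727). The 11 had a median log2 fold change of -0.62 and a highest one of 0.56, where P2ry2 had 1.21. Without WT 1 none of the 3 calls held (edgeR adjusted p = 0.104 for P2ry1, 0.203 for P2rx7 and 0.173 for P2ry13). Leaving out WT 2 ended the calls of P2rx7 and P2ry13 (edgeR adjusted p = 0.0720 and 0.0923), as did leaving out KO 1 (0.0546 and 0.0520).

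Trpm4 (chr7:45302632-45333780, minus strand) lets sodium in when intracellular calcium rises and so depolarises the cell. Trpm4 had 65.2 and 68.2 CPM in the wild types, against 86.7, 85.4 and 88.3 CPM with the knockout genotype. The knockouts lay close together and above both wild types. Wild types averaged 66.7 ± 2.16 CPM (SD, n = 2) and knockouts 86.8 ± 1.45 CPM (SD, n = 3), a log2 fold change of 0.38 ± 0.09 (SE; edgeR adjusted p = 0.0154). Without WT 1, WT 2 or KO 1 the call was lost (edgeR adjusted p = 0.117, 0.0573 and 0.0504), with a log2 fold change of 0.34, 0.40 and 0.38.

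Trpv4 (chr5:114622152-114658421, minus strand), a calcium-permeable channel that opens to cell swelling and stretch, was the most abundant of the 10 per length. Wild types had 175 and 174 CPM of it, and knockouts 199, 205 and 202 CPM. The genotypes did not overlap, yet the log2 fold change of 0.21 ± 0.09 (SE) did not pass (edgeR adjusted p = 0.122). The SDs were 1.20 CPM (n = 2) and 3.18 CPM (n = 3). None of the 15 alternatives tried brought Trpv4 past the threshold (adjusted p = 0.106 to 0.317).

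Trpm7 (chr2:126791565-126876230, minus strand) joins a magnesium and calcium channel to a protein kinase. Its wild-type levels of 130 and 109.9 CPM compare with 107, 94.3 and 109.6 CPM in knockouts. KO 3 lay just below WT 2, and the log2 fold change was -0.21 ± 0.11 (SE; edgeR adjusted p = 0.189). Trpv2 (chr11:62574486-62600515, plus strand), a channel of macrophages and sensory neurons that opens to membrane stretch, was scarce. Only 85 and 71 reads were counted in the wild types and 109, 44 and 59 with the knockout genotype, or 4.44, 4.95, 4.10, 2.65 and 4.59 CPM. Trpv2 overlapped between genotypes (log2 fold change -0.31 ± 0.26 SE, edgeR adjusted p = 0.435), and counts this low leave a wide error.

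Of 25 other TRP channel genes only 12 had enough counts to test, and Trpv5, Trpm8, Trpc2 and Trpc7 had none in any library. Of these 12, none rose and 3 fell, 5 had an unadjusted p under 0.05, and the median log2 fold change was -0.66. Pkd1 and Pkd2, whose polycystin products form a channel complex of cilia and cell contacts, fell by 0.86 and 0.45 on the log2 scale (edgeR adjusted p = 0.00394 and 0.0132), Pkd1 from 183 and 151 CPM to 73.6, 94.8 and 107.6 CPM. Trpc6, a channel opened by diacylglycerol, fell by 1.33 from 1.46 and 2.23 CPM (edgeR adjusted p = 0.0460). The sensory channel genes Trpv1 and Trpa1 stayed under 1 CPM in every library, and Trpa1 was not tested. Trpv1 had 0.888 and 0.697 CPM in wild types against 0.452, 0.120 and 0.0779 CPM in knockouts, without overlap. Its log2 fold change of -1.62 did not pass (edgeR adjusted p = 0.0938). Without WT 1 none of these calls held (edgeR adjusted p = 0.0660 for Pkd1, 0.0717 for Pkd2 and 0.138 for Trpc6). Pkd2 was lost as well without WT 2 (edgeR adjusted p = 0.0672) or KO 1 (0.0508), and Trpc6 without WT 2 (0.259) or KO 2 (0.0979) and in DESeq2 (adjusted p = 0.0838).

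Piezo channels open directly when the membrane is stretched. Piezo2 had 11.5 and 13.9 CPM in the wild types and reached 21.4, 20.1 and 15.5 CPM with the knockout genotype. KO 3 was closer to WT 2 than to the other knockouts, though no library overlapped. Means were 12.7 ± 1.68 CPM (SD, n = 2) for wild types and 19.0 ± 3.12 CPM (SD, n = 3) for knockouts, a log2 fold change of 0.60 ± 0.17 (SE; edgeR adjusted p = 0.0332). The call did not hold without WT 1 (edgeR adjusted p = 0.262), WT 2 (0.0741), KO 1 (0.118) or KO 2 (0.0891), with log2 fold changes of 0.46, 0.72, 0.50 and 0.55. Piezo2 is best known from sensory neurons and Merkel cells. Of the 9 neural and Schwann cell markers, 7 were tested, Uchl1 and Prph rose and 5 did not pass. The 8 other than Uchl1 summed to 18.4 to 19.2 CPM in wild types and 16.5 to 18.9 CPM in knockouts, and the neurofilament gene Nefl had 1 count or none in every library. Uchl1, a deubiquitinase of neurons, rose from 440 and 523 CPM to 991, 1080 and 1103 CPM (edgeR adjusted p = 0.000371).

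Piezo1 (chr8:122481698-122551329, minus strand), the form found in epithelia and vessels, had wild-type levels of 118 and 96.0 CPM, against 84.1, 103 and 104 CPM in knockouts. The genotypes overlapped, and the log2 fold change was -0.14 ± 0.13 (SE; edgeR adjusted p = 0.450). Exons of Piezo1 overlap those of Ctu2 on the opposite strand, so without a known strand setting some reads of the pair could be misassigned or dropped. Per kilobase, Piezo1 exceeded Piezo2 by 13.4 and 9.03 times in wild types, against 5.12, 6.69 and 8.78 times in knockouts. That ratio was lower in each knockout than in either wild type, also over all exons (17.8 and 11.95 times against 6.78, 8.85 and 11.6 times).

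Of 26 other mechanosensitive channel genes and channel partners, 19 were tested. Of these 6 rose and none fell, 11 had an unadjusted p under 0.05, and the median log2 fold change was 0.15. Kcnk2, the stretch-activated potassium channel TREK-1, rose from 20.2 and 21.5 CPM to 36.9, 33.0 and 47.0 CPM (log2 fold change 0.90 ± 0.15 SE, edgeR adjusted p = 0.00352). Kcnma1, the large-conductance potassium channel opened by calcium and voltage, rose by 0.66 and Tmem120a by 0.72 on the log2 scale. Pacsin1, a membrane-curving protein related to the TRPV4 partner PACSIN3, rose by 1.72 (edgeR adjusted p = 0.00671), from 4.70 and 3.83 CPM to 10.4, 10.9 and 22.03 CPM with KO 3 standing apart. The epithelial sodium channel genes Scnn1b and Scnn1g had log2 fold changes of 0.016 and 0.079 and overlapped between genotypes. Pacsin3 itself and Tmem87a made up the 6 that rose (log2 fold changes of 0.39 and 0.44). Without WT 1 the calls of Kcnk2, Pacsin1, Tmem120a and Pacsin3 were lost (edgeR adjusted p = 0.0602, 0.0696, 0.128 and 0.159). Without WT 2 those of Pacsin1, Kcnma1, Tmem87a and Pacsin3 were lost (edgeR adjusted p = 0.0733, 0.0781, 0.0702 and 0.0866), and Pacsin3 was lost without KO 1 (0.0622) or KO 2 (0.0837).

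Panx1 (chr9:15002128-15045478, minus strand) forms large plasma membrane channels through which ATP leaves the cell. Panx1 had 29.7 and 31.3 CPM in wild types, and knockouts had 36.6, 33.2 and 31.7 CPM. KO 3 lay just above WT 2, and the log2 fold change of 0.15 ± 0.11 (SE) did not pass (edgeR adjusted p = 0.348). The Panx1 window is printed because it alone, among the 10 windows matched, held the RBPJ core, shown in capitals and beginning 16 bases before the start.
Panx1, chr9:15045479-15045728, minus strand: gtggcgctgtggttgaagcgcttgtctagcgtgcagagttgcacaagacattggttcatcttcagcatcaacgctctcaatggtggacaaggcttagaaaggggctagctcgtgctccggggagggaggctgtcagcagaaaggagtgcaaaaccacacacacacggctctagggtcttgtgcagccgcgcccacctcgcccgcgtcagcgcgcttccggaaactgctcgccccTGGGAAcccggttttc
Such a match in letters does not show binding, and Panx1 was among the 6 genes that did not pass.

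Slc17a9 (chr2:180725263-180742280, plus strand) encodes VNUT, the transporter that loads ATP into vesicles for release. Counts of 94 and 71 in wild types and of 90, 57 and 42 in knockouts corresponded to 4.91 and 4.95 CPM against 3.39, 3.43 and 3.27 CPM. The genotypes did not overlap, but the log2 fold change of -0.55 ± 0.21 (SE) did not pass (edgeR adjusted p = 0.0958). In none of the 14 alternatives that could test it did Slc17a9 pass, and its log2 fold change stayed between -0.59 and -0.53. Per kilobase, Panx1 was 2.40 and 2.51 times the Slc17a9 level in wild types, against 4.29, 3.84 and 3.85 times in knockouts, without overlap.

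Of 20 other genes for ATP release routes, 15 were tested. Of these 3 rose and 2 fell, 10 had an unadjusted p under 0.05, and the median log2 fold change was 0.10. The connexin genes Gja1 and Gjb6, whose hemichannels can pass ATP, rose by 0.51 and 0.41 on the log2 scale, Gjb6 from 158 and 160 CPM to 211, 197 and 226 CPM. Of the subunits of the volume-regulated anion channel, Lrrc8e rose by 0.37 (edgeR adjusted p = 0.0208) and Lrrc8b fell by 0.94. Abcc6, a transporter known for ATP release from the liver, had 51 and 44 counts in wild types against 1, 4 and 1 in knockouts (edgeR adjusted p = 0.000489). Calhm1 had no count in any library. Leaving out WT 1, WT 2, KO 1, KO 2 or KO 3 left 0, 1, 2, 2 and 5 that rose, and leaving out WT 1 left 1 that fell. Calls lost were Gja1, Lrrc8b, Gjb6 and Lrrc8e without WT 1 (edgeR adjusted p = 0.118, 0.142, 0.114 and 0.131) and Gjb6 and Lrrc8e without WT 2 (0.0781 and 0.0788). Lrrc8e was also lost without KO 1 (edgeR adjusted p = 0.0732) or KO 2 (0.0797).

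Genes listed for nucleotide breakdown and adenosine moved in both directions, and the list is wider than the clearing of ATP outside cells. Of 23 listed genes 20 were tested. Of these 5 rose and 5 fell, 10 had an unadjusted p under 0.05, and the median log2 fold change was -0.14. Entpd1 (CD39), which strips ATP and ADP to AMP, fell from 69.8 and 64.4 CPM to 46.2, 44.4 and 46.3 CPM (log2 fold change -0.56 ± 0.09 SE, edgeR adjusted p = 0.00319). Entpd2, which prefers ATP and leaves ADP, rose from 88.7 and 89.1 CPM to 112, 130 and 117 CPM (log2 fold change 0.43 ± 0.10 SE, edgeR adjusted p = 0.0137). Entpd6, of the same family, rose by 0.45 on the log2 scale and Enpp2, which makes lysophosphatidic acid, fell by 0.61. Entpd3, another ectonucleotidase, had 157 and 159 CPM against 178, 166 and 171 CPM, short of the threshold (edgeR adjusted p = 0.374). Leaving out WT 1, WT 2, KO 1 or KO 2 left 0, 1, 2 and 1 that rose and 3, 2, 2 and 3 that fell. The other genes called were Nt5e, Alpl and Slc29a2, which rose, and Entpd5, Adk and Adora1, which fell. Entpd1 and Enpp2 passed without any 1 library. Entpd6 was lost without WT 1 (edgeR adjusted p = 0.0788) and Entpd2 without WT 1 (0.102), WT 2 (0.0703) or KO 2 (0.0609). Nt5e, Alpl, Slc29a2 and Entpd5 were each lost without WT 1, WT 2, KO 1 or KO 2, Adora1 without WT 1, WT 2 or KO 1, and Adk without WT 2, KO 1 or KO 2 (edgeR adjusted p from 0.0516 for Adora1 to 0.257 for Entpd5).

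Downstream of P2Y2, Gq activates phospholipase C, and its product opens calcium stores. A wider list of 26 genes covered Gq class subunits, phospholipases C of several classes and calcium handling. All were tested, 1 rose and 3 fell, 6 had an unadjusted p under 0.05, and the median log2 fold change was 0.020. Plcd1, a phospholipase C, rose by 0.38 (edgeR adjusted p = 0.0147), and Atp2b4, a calcium pump of the plasma membrane, fell by 0.72 (0.0103). Gna15, a Gq class subunit, and Plcb1, a phospholipase C, fell by 0.43 and 0.82. Gnaq, which encodes the Gq subunit itself, had 127 and 109 CPM against 140, 133 and 142 CPM, short of the threshold (edgeR adjusted p = 0.133). Without WT 1 none of the 4 passed (edgeR adjusted p = 0.106 for Plcd1, 0.146 for Atp2b4, 0.0740 for Gna15 and 0.178 for Plcb1). Without WT 2, Plcd1, Gna15 and Plcb1 were lost (edgeR adjusted p = 0.0644, 0.111 and 0.101), without KO 1, Gna15 and Plcb1 (0.0550 and 0.0831), and without KO 2, Plcd1 and Gna15 (0.0647 and 0.0605). Without KO 3 those that fell numbered 5.

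Across the 6 related lists, the share of tested genes that passed was 50% for nucleotide breakdown and adenosine, 33.3% for other ATP release and 31.6% for other mechanosensitive channels. It was 27.3% for other P2X and P2Y receptors, 25% for other TRP channels and 15.4% for Gq and calcium handling. Over all tested genes the share was 19.7% (9.64% higher and 10% lower), and 34.8% had an unadjusted edgeR p under 0.05. These shares carry no test.

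**Figure D3:**
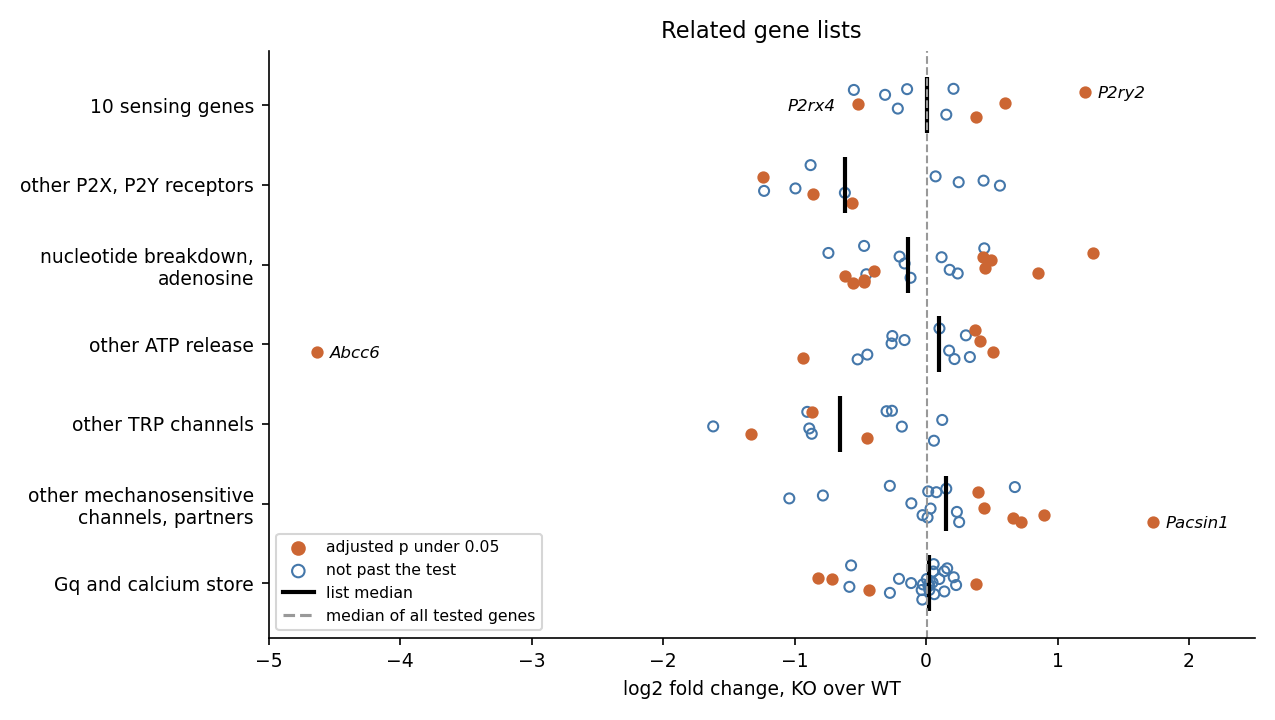
Log2 fold change, KO over WT, of each tested gene in the list of 10 and in the 6 related lists (filled where the adjusted p is under 0.05), with list medians as black bars and the median of all tested genes as a dashed line. The medians of other P2X and P2Y receptors (-0.62) and other TRP channels (-0.66) lie furthest below that line.

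To set the 10 genes against each other, CPM was divided by the length of the longest coding transcript in kilobases. Trpv4 was the most abundant, with means of 54.1 ± 0.37 per kb (SD, n = 2) in the wild types and 62.5 ± 0.985 per kb (SD, n = 3) in the knockouts. In the wild types Trpm7, P2rx4 and Trpm4 came next at 16.9, 16.4 and 15.8 per kb, and these neighbours overlapped. Piezo1 followed at 13.04, then P2ry2 and Panx1 at 5.77 and 5.32, which overlapped, and Slc17a9, Trpv2 and Piezo2 at 2.17, 1.61 and 1.18. In the knockouts Trpm4 stood alone behind Trpv4 at 20.5 per kb. Trpm7, P2ry2, Piezo1 and P2rx4 followed at 14.6, 13.3, 11.8 and 11.5 per kb, each overlapping the next. Panx1 came after them at 5.90 per kb, then Piezo2, Slc17a9 and Trpv2 at 1.77, 1.48 and 1.30, the last 3 overlapping. P2ry2 thus went from rank 6 to rank 4 and P2rx4 from rank 3 to rank 6. With lengths taken over all annotated exons, P2ry2 went from rank 7 to rank 2 and P2rx4 from rank 4 to rank 7, and Trpm4 was at rank 5 in both genotypes, so these ranks depend on the transcript chosen.

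**Figure D4:**
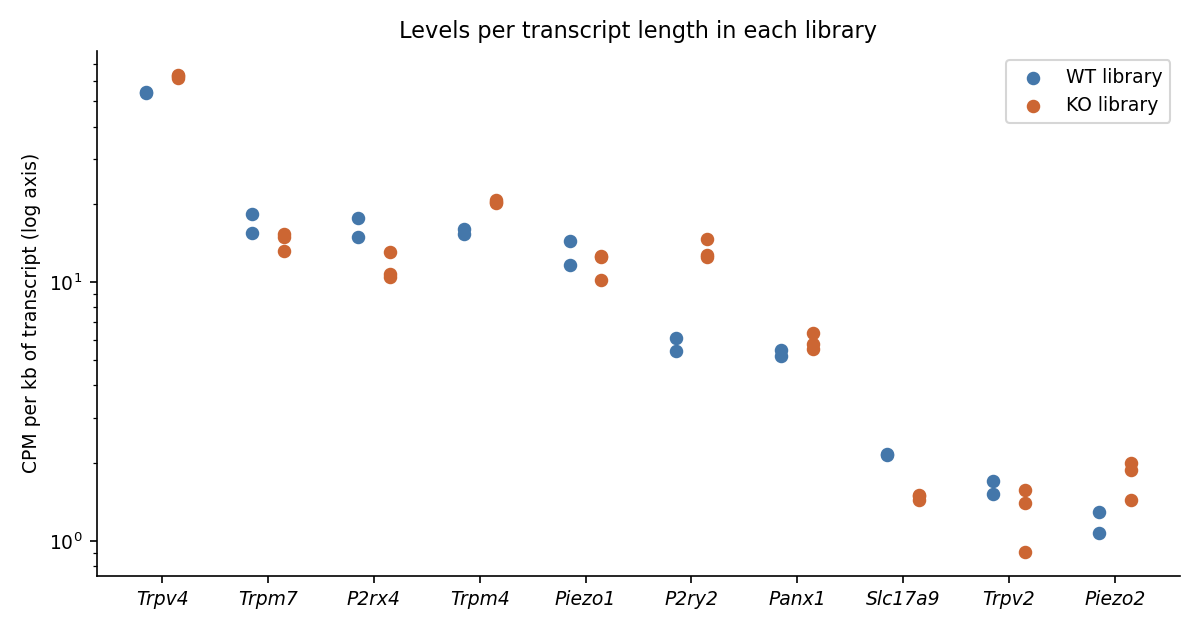
CPM per kilobase of the longest coding transcript (log axis) in each WT (blue) and KO (orange) library, with genes ordered by their wild-type mean. Trpv4 lies above 50 per kb in every library, and P2ry2 reaches the level of Piezo1 and P2rx4 in the knockouts.

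Because the urothelium markers as a sum stood 1.40 times higher in the knockouts, each gene was also divided by that sum within its own library. Only P2ry2 then had all knockouts above both wild types, at 1.57, 1.89 and 1.79 CPM per 1000 CPM of markers against 1.07 and 1.06, or 1.65 times higher by the means. Trpm4 had 4.26 and 3.92 in wild types against 3.62, 3.66 and 4.12 in knockouts, and Piezo2 had 0.751 and 0.797 against 0.894, 0.864 and 0.723, so both overlapped on this scale. The remaining 7 genes had every knockout below both wild types. P2rx4 came to 0.504 and Slc17a9 to 0.486 of their wild-type level, and Trpv4, which was above the wild types in CPM, to 0.824. These ratios carry no test, and 8 of the 16 markers in the divisor themselves rose. The choice of divisor changed the direction for some genes. Divided by the 9 fibroblast markers, whose sum was lower in the knockouts, P2ry2 (3.74 times), Piezo2 (2.45), Trpm4 (2.12), Trpv4 (1.88), Panx1 (1.82), Piezo1 (1.48) and Trpm7 (1.42) had every knockout above both wild types. P2rx4 (2.43 and 3.27 against 3.32, 2.91 and 3.43), Slc17a9 and Trpv2 overlapped there. P2ry2 was above the wild types with either divisor, and Trpv4, Panx1, Piezo1 and Trpm7 were below with one and above with the other. A gene of unchanged CPM would itself be lower in the knockouts by the urothelium divisor and higher by the fibroblast divisor. The share of all tested genes without overlap was not computed on these scales, so the counts above and below have no background.

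**Figure D5:**
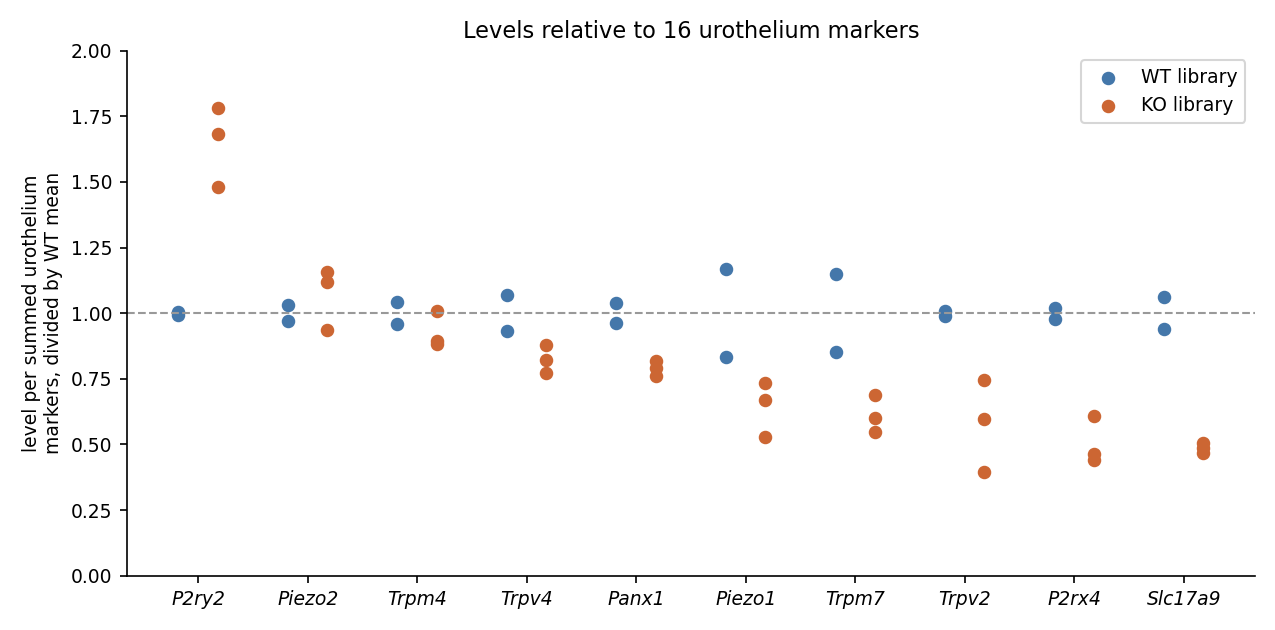
Level of each gene divided by the summed level of 16 urothelium markers in the same library, then by the wild-type mean of that ratio (dashed line at 1), for WT (blue) and KO (orange) libraries. P2ry2 is above the line in all 3 knockouts, Piezo2 and Trpm4 overlap the wild types, and the other 7 genes lie below.

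Genes with the most similar profile were sought for the 3 of the 10 with the smallest p, by the root-mean-square distance between log2 CPM values centred on each gene's mean over the 5 libraries. For P2ry2 these were 2700038G22Rik, Smoc1 and Zfp791, at distances of 0.047, 0.056 and 0.082 and log2 fold changes of 1.19, 1.16 and 1.22. For Trpm4 they were Inip, Hspa8 and Pdcd10 (distances 0.015, 0.018 and 0.020), and for P2rx4 Msantd2, Wdr5b and Gpr19 (0.036, 0.042 and 0.044). The distance includes the genotype difference itself, over 5 libraries in 2 groups.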

How the data were processed

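RNA of dissected bladder urothelium from 2 WT and 3 KO mice was measured, 1 library per mouse per the design text. Fibroblast and endothelial markers were present too, with the sums given above, so levels and ranks are those of the mixed tissue. The deposited values are raw gene counts per library, made by the authors with HISAT2 2.1.0, HTSeq 0.11.1 and build mm10, with DESeq2 also named, per the submitters' processing notes. The annotation and strand setting behind the counts are not stated there.

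The 5 summary entries of the counting program were left out, which left 49.3% to 60.6% of tallied reads in genes. The low-count filter was filterByExpr with a minimum count of 10 and total of 15, libraries were scaled with TMM, and the genotype was tested with edgeR 4.0.16 in R 4.3.3 (quasi-likelihood, common biological coefficient of variation 0.109), which was tested on simulated data. The SE is the log2 fold change over the root of its F. Alternatives used DESeq2 1.42.0, limma 3.58.1, other scalings and filters, a replicate block, and 1 library left out at a time. Between replicates, chi-square per degree of freedom was 9.62 to 38.0, highest between WT 1 and WT 2, where counting alone would give about 1. It was summed over all tested genes, Rn45s included. The most abundant genes weigh most in such a sum, so it is not the spread of a typical gene. Positions and lengths are from GENCODE vM21 (GRCm38), and promoter windows from RefSeq.

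The 10 genes and all lists were chosen with earlier results of these data known. Of 133 pathway genes, Calhm3 was not matched and 103 could be tested. Named genes were the 10, and of each list up to 4 with the smallest p past the test. The remaining called genes of a list, genes with no count and the single markers named were chosen after their values were seen. So were P2rx3, Trpv1, Trpa1, Scnn1a, Scnn1b, Scnn1g, Entpd3 and Gnaq.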

Additional observations from a re-analysis of the deposited data

How the results depend on the processing

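Of the 10 genes, P2ry2 passed in all 15 alternatives. Trpm4, Piezo2 and P2rx4 passed in every alternative with all 5 libraries and were lost only when a library was left out, Trpm4 in 3 of 5 such fits and Piezo2 and P2rx4 in 4 of 5. Leaving out 1 library at a time, 1 to 3 of the 10 were higher and 0 to 1 lower, 715 to 3989 genes changed, and pathway genes numbered 2 to 18 higher and 4 to 23 lower, against 15 and 16 in all libraries. The fewest were left without WT 1, which leaves 1 wild type that is assumed to vary like the knockouts. With the replicate number as a block, 4637 genes changed in place of 2907 and 25 pathway genes were lower. No wild type shares the number of KO 3, so in that fit KO 3 adds nothing to the genotype difference. The numbers share no animal, so they are not taken as pairs. Same-numbered libraries deviated with correlations of -0.055 and 0.052. With 2 wild types the deviations of WT 1 and WT 2 mirror each other, so these correlations cannot tell matched from unmatched numbers. No call among the 10 changed with the block, a fit that leaves few degrees of freedom for the variance. Piezo1 turned from -0.14 to 0.010 on the log2 scale without WT 1, past no threshold in either fit, and ran from -0.30 to 0.010 over the fits with 1 library left out. Upper-quartile scaling moved the median of all genes from 0.0071 to -0.034 and turned none of the 10. Slc17a9 and Trpv2 fell out at a filter of 5 CPM. Counts of at most 109 per library, as for these 2 genes, limit what 2 against 3 mice can show.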
